A study of Mus musculus with 4 samples.

Results

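The 36 genes described here carry glucose through glycolysis to lactate and store or release it as glycogen. They were taken from a fixed list of symbols, and each gene was read from the probe set with the highest mean among those annotated to that gene alone. Of the 36 genes, 31 had such a probe set among the 12488 probe sets of the array. Gpi1, Eno1, Pfkfb1, Slc16a3 and Ppp1r3a had none and are not analysed here. The arrays were hybridised with RNA from soleus, a slow-twitch calf muscle, of female mice aged 6 months. HSL-null mice lack hormone-sensitive lipase, the enzyme encoded by Lipe that hydrolyses stored acylglycerols, and wildtype mice served as the controls. For each genotype the muscles of 5 mice were pooled and measured on 2 technical duplicate arrays, which leaves 1 biological sample per genotype. Neither the strain nor the disrupted part of Lipe is known from the labels.

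Glycolysis splits glucose phosphates into pyruvate, and lactate dehydrogenase interconverts pyruvate and lactate. Phosphofructokinase is its main point of control in muscle and is stimulated by a sugar bisphosphate that the PFKFB enzymes make and remove. Muscle stores glucose as glycogen, which glycogen synthase and the branching enzyme build and which glycogen phosphorylase, switched on by phosphorylase kinase, breaks down. Fast fibres rely on these reactions more than slow fibres do, and several steps have a form typical of muscle beside one found in most tissues.

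The values are linear array intensities that had been scaled between arrays before deposit, with trimmed means near 100 on every array. Lipe measured 16.2 and 19.4 on the HSL-null arrays, against 71.4 and 70.2 on the wildtype arrays. The slow myosin heavy chain Myh7, a defining gene of this muscle, was bright on all 4 arrays, at 5267 and 5136 in HSL-null and 5355 and 4889 in wildtype. The arrays correlated at r = 0.988 between the HSL-null duplicates and 0.987 between the wildtype duplicates, and at 0.983 to 0.986 between genotypes, across 6208 probe sets that are not independent replicates. As a mark of RNA quality, beta-actin control signal at the 3′ end over that at the 5′ end stood at 0.819 ± 0.00532 in HSL-null and 0.697 ± 0.0126 in wildtype (SD, n = 2 arrays each), and that of Gapdh at 0.917 ± 0.00716 in HSL-null and 0.941 ± 0.0203 in wildtype.

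Of the genes measured, Pfkfb3 alone differed by more than the 1.5-fold rule below asks, and it was higher in HSL-null. Of the 31 genes on the array, 28 had a mean intensity at or above the filter of 27.7, the median of all probe sets. A gene was called separated when every one of the 4 comparisons of single arrays, HSL-null over wildtype, went one way by at least 1.5-fold. By that rule 1 of 28 genes was separated higher and 0 lower, beside 0.226% of all 6208 probe sets in each direction. The gene, Pfkfb3, passed the filter only through its HSL-null values (58.5 and 46.3), as its wildtype values (24.9 and 23.2) lie under it, so that the count is no support for a difference. It was lost at a threshold of 2-fold and with the filter at the 75th percentile. With 1 pool per genotype there is no test across animals and no p-value, and every error below is the spread of duplicate arrays. In RNA of whole muscle, fewer cells of a type and less RNA per cell cannot be told apart.

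A looser reading asks only whether both HSL-null arrays lie on one side of both wildtype arrays. Of the 28 genes, 10 lay higher in this sense and 6 lower, which is 35.7% and 21.4%. Over all 6208 probe sets the shares were 19.5% higher and 21.1% lower, so that the lower share of the members was near the background. Among the 353 probe sets with a mean of at least 1000, a range that holds 14 of the members, the background was 30.6% higher and 13.9% lower. Of these 14 bright members 5 lay higher and 2 lower, a higher share of 35.7% that is near the background at this level. Gapdh, among the 5, was read from a control probe set, and both backgrounds leave such probe sets out. Without Gapdh 9 of 27 genes lay higher (33.3%) and 6 lower (22.2%). The median log2 difference of the 28 genes, HSL-null minus wildtype, was 0.050, beside -0.0022 over all probe sets kept and 0.034 over the bright ones. With quantile normalization the median of the members lay at -0.0041, beside -0.00023 over all probe sets kept. It lay at -0.0062 when arrays were centred on the bright probe sets. That centring lowered the differences of all probe sets together, and the median over all probe sets kept was then -0.059. The sign of the members' median thus depends on the scaling and is not settled. With that centring 8 of the 28 members lay higher and 8 lower, beside 11.0% and 32.4% of all probe sets. Leaving out the second wildtype array gave a median of 0.021, and leaving out the first gave 0.083.

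**Figure D1:**
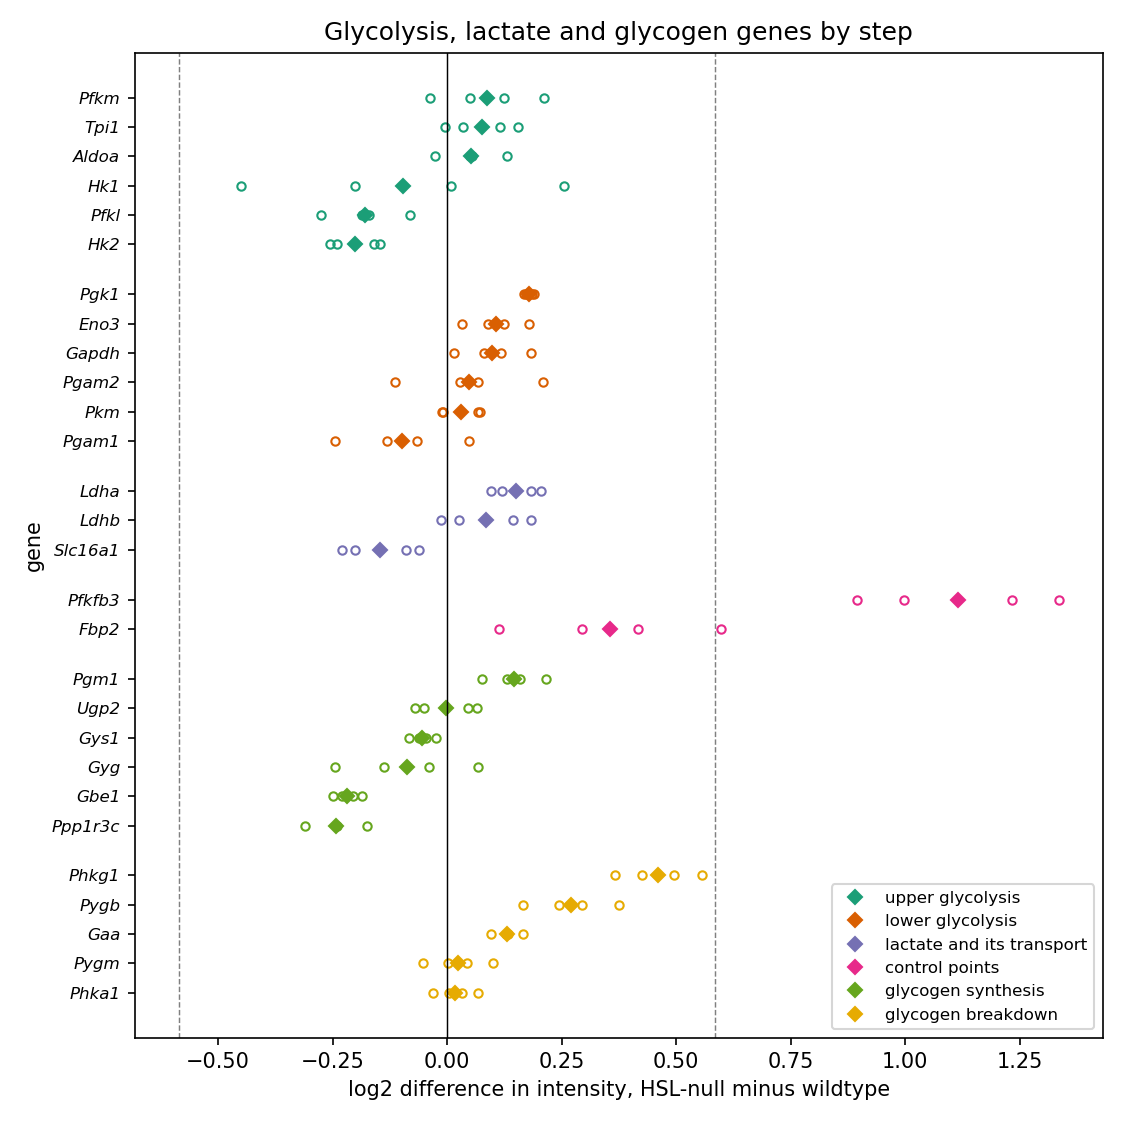
Log2 difference in intensity, HSL-null minus wildtype (horizontal axis), for the 28 genes above the filter, grouped by step (vertical axis). Diamonds are the mean difference, open circles the 4 comparisons between single arrays, and dashed lines mark 1.5-fold in each direction. All 4 circles of Pfkfb3 lie beyond the upper line, and every other gene has its mean between the lines.

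Sequences before the transcription start are shown for the 3 genes with the highest and the 3 with the lowest difference among those whose arrays do not overlap, and for Ldha, chosen after its sequence was seen because it holds the motif in 3 places. Each is the 200 bases before the most upstream RefSeq start (build GRCm38.p6), 5′ to 3′ on the strand of the gene. Capitals mark ACGTG on either strand, the core of the sequence to which hypoxia-inducible factors bind. Where it stands as CACGTG, an E-box, both strands hold the core in overlapping letters.
Pfkfb3 (chr2:11553931-11554130, minus strand): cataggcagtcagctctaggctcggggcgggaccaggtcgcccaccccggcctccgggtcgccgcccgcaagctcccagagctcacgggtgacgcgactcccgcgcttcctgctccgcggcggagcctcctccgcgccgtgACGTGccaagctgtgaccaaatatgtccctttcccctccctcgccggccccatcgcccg
Phkg1 (chr5:129879090-129879289, minus strand): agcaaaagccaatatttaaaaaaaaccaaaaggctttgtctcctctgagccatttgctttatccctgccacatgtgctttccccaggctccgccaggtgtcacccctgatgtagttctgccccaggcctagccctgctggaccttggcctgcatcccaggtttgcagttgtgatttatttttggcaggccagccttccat
Fbp2 (chr13:62858402-62858601, minus strand): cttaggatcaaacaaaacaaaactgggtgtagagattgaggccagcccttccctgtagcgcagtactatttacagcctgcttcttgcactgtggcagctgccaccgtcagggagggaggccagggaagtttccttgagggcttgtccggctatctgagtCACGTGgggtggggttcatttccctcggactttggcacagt
Ppp1r3c (chr19:36736606-36736805, minus strand): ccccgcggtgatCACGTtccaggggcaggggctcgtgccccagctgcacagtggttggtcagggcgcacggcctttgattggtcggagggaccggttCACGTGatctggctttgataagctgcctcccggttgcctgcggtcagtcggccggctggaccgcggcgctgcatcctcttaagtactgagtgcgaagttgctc
Gbe1 (chr16:70313749-70313948, plus strand): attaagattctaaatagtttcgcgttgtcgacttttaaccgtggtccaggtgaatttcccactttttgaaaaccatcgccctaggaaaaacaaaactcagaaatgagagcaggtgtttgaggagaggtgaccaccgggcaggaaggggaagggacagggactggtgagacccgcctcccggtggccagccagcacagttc
Hk2 (chr6:82774456-82774655, minus strand): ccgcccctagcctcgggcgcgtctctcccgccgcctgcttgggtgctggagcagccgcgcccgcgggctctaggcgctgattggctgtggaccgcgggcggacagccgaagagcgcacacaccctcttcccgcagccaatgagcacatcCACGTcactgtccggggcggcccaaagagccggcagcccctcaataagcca
Ldha (chr7:46845604-46845803, plus strand): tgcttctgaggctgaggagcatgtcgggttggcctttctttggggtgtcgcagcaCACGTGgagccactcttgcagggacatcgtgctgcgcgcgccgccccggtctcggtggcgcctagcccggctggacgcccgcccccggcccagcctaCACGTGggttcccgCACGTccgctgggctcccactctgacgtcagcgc
The core was present in this window in 14 of the 28 genes above the filter, and in 13.9% of the 27025 genes with a promoter sequence. It stood in 7 of the 10 genes that lay higher in HSL-null, 3 of the 6 that lay lower and 4 of the 12 that overlapped. The members' windows had a median GC content of 60.8%, against 53.0% over all genes, and the motif holds a CG pair. The part of base composition in the share was not tested. A match is a stretch of letters and shows no binding.

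At the entry to glycolysis, hexokinase traps glucose in the cell as its phosphate. Hk2, the hexokinase that responds to insulin and exercise in muscle, measured 1332 and 1320 on the HSL-null arrays, against 1474 and 1574 on the wildtype arrays. Both HSL-null arrays lay below both wildtype arrays, and the log2 difference was -0.20 ± 0.048 (SE of duplicates). Hk1, the form found in most tissues, measured 901 and 656 in HSL-null and 754 and 896 in wildtype. Its duplicates differed from each other by more than the genotypes did (log2 difference -0.097 ± 0.26).

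Phosphofructokinase commits sugar phosphates to glycolysis and is built from 3 gene products. Pfkm, the muscle subunit, measured 3229 and 3430 in HSL-null and 3313 and 2963 in wildtype, with overlapping arrays and a log2 difference of 0.087 ± 0.092. Pfkl, the liver subunit, measured 130 and 138 in HSL-null, against 146 and 157 in wildtype. Its arrays did not overlap, and the log2 difference was -0.18 ± 0.069. Pfkp, the platelet subunit, lay below the filter, at 15 and 19.4 in HSL-null and 14.2 and 14.1 in wildtype, and its second probe set went the other way (log2 difference -0.43 ± 0.42). Aldoa, the aldolase of muscle, and Tpi1, which interconverts the triose phosphates, overlapped between genotypes, with log2 differences of 0.052 ± 0.055 and 0.075 ± 0.063. The second Aldoa probe set gave 0.065 ± 0.047. Of the 6 genes of upper glycolysis above the filter, 0 lay higher without overlap and 2 lay lower, beside 19.5% and 21.1% of all probe sets. Hk2, Pfkm, Aldoa and Tpi1 have a mean of at least 1000, where the background was 30.6% higher and 13.9% lower. The group median was -0.022, and it stood at 0.050 without the second HSL-null array.

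The enzymes of lower glycolysis turn triose phosphates into pyruvate and yield ATP. Pgk1, the kinase that makes the first of that ATP, measured 1553 and 1533 in HSL-null, against 1362 and 1366 in wildtype. The duplicates nearly coincided, and the log2 difference of 0.18 ± 0.0094 had the smallest error of the 28 genes, and the gene was 1.13-fold higher. Eno3, the muscle enolase, measured 3839 and 3604 in HSL-null and 3522 and 3390 in wildtype (log2 difference 0.11 ± 0.053). Gapdh, which couples oxidation of the triose to phosphate uptake, was read from a control probe set of the middle of its transcript, since its ordinary probe sets are annotated to pseudogenes as well. It measured 5608 and 5357 in HSL-null and 5303 and 4939 in wildtype, a log2 difference of 0.099 ± 0.061. These levels stand close to the highest intensity on each array, between 5646 and 6183, where a change may not show. The 5′ and 3′ control probe sets of Gapdh gave log2 differences of 0.13 ± 0.037 and 0.096 ± 0.060, and the brighter ordinary probe set, shared with pseudogenes, gave 0.11 ± 0.042.

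The remaining genes of lower glycolysis overlapped between genotypes. Pgam2, the muscle phosphoglycerate mutase, measured 2964 and 2687 in HSL-null and 2563 and 2906 in wildtype, a log2 difference of 0.048 ± 0.11. Pgam1, the form of most other tissues, measured 101 and 115 in HSL-null and 120 and 111 in wildtype, a log2 difference of -0.098 ± 0.11. Pkm, the pyruvate kinase of muscle, differed by 0.030 ± 0.040 on the log2 scale, and its dimmer probe set by 0.11 ± 0.29. Of the 6 genes of lower glycolysis, 3 lay higher without overlap and 0 lower, beside 30.6% and 13.9% of the probe sets with a mean of at least 1000, the range of all of them but Pgam1. The group median was 0.074, but 0.0042 with quantile normalization and 0.017 with centring on bright probe sets, where Eno3 and Gapdh overlapped. It was 0.026 without the first HSL-null array and 0.13 without the second.

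Lactate dehydrogenase is a tetramer of A and B chains, of which A prevails in glycolytic muscle and B in oxidative muscle and heart. Ldha measured 3536 and 3329 in HSL-null, against 3115 and 3065 in wildtype. Both HSL-null arrays lay above both wildtype arrays, and the log2 difference was 0.15 ± 0.045, 1.11-fold higher. Ldhb measured 2390 and 2459 in HSL-null and 2413 and 2164 in wildtype, and these arrays overlapped (log2 difference 0.085 ± 0.081). Slc16a1, the lactate transporter MCT1 of oxidative fibres, measured 98.8 and 101 in HSL-null and 116 and 105 in wildtype. It lay lower without overlap, with a log2 difference of -0.15 ± 0.071.

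At the control points of the pathway 2 genes were measured, of which Pfkfb3 was separated and Fbp2 was not. Pfkfb3, which makes the bisphosphate that stimulates phosphofructokinase, measured 58.5 and 46.3 in HSL-null, against 24.9 and 23.2 in wildtype. The lower HSL-null array thus stood well above the higher wildtype array, and the log2 difference was 1.11 ± 0.18, 2.17-fold higher. The gene is dim, and the limit set by the filter, given above, holds for these values. A second Pfkfb3 probe set stood near the floor of 5.70, at 6.50 and 3.40 in HSL-null and 2.80 and 1.40 in wildtype, and gives no further reading. Fbp2, the muscle fructose bisphosphatase, which runs the phosphofructokinase step in reverse, measured 81.0 and 91.9 in HSL-null, against 60.7 and 74.9 in wildtype. Its arrays did not overlap, the log2 difference was 0.36 ± 0.18, and it was not separated.

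**Figure D2:**
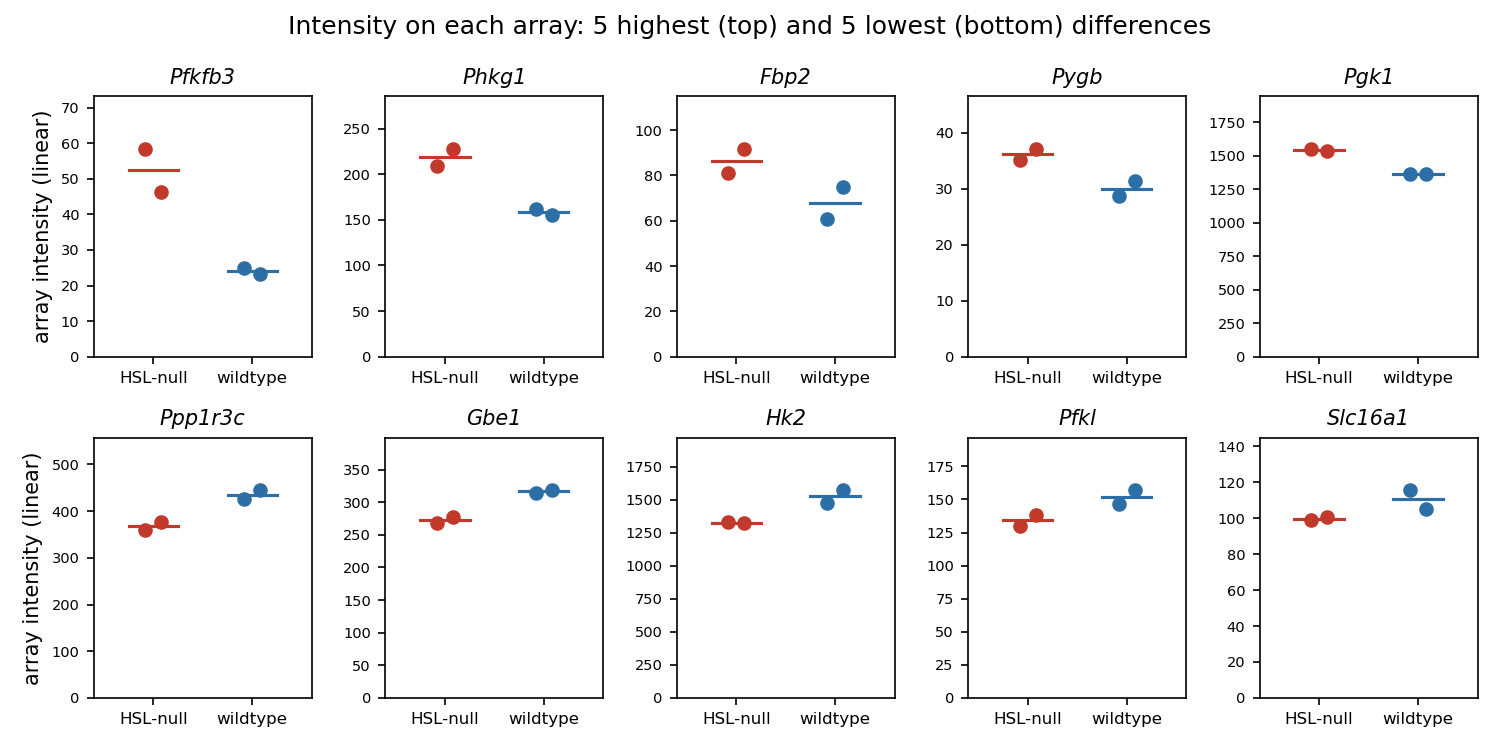
Linear intensity on each array (vertical axes, each from 0) for the 5 highest and the 5 lowest differences among genes whose arrays do not overlap, with HSL-null left and wildtype right. Points are single arrays and lines their mean over 2 arrays. Pfkfb3 stands at 58.5 and 46.3 in HSL-null against 24.9 and 23.2 in wildtype, and the other 9 genes differ by a smaller fold.

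Of the 6 genes that build glycogen and passed the filter, 3 lay lower in HSL-null without overlap (Ppp1r3c, Gbe1 and Gys1), 1 lay higher (Pgm1) and 2 overlapped. Over all probe sets the shares were 21.1% lower and 19.5% higher. Ppp1r3c, which targets protein phosphatase to glycogen and so activates glycogen synthase, measured 360 and 377 in HSL-null, against 425 and 446 in wildtype. Its log2 difference of -0.24 ± 0.048 was the lowest of the 28 genes. Gbe1, the branching enzyme, measured 269 and 277 in HSL-null and 315 and 319 in wildtype, a log2 difference of -0.22 ± 0.023. The duplicates of both genes lay close together and the genotypes apart, at 1.18-fold and 1.16-fold lower. Gys1, the glycogen synthase of muscle, measured 2111 and 2057 in HSL-null and 2147 and 2180 in wildtype. This small difference of -0.054 ± 0.022 on the log2 scale gave overlapping arrays with median centring, while Ppp1r3c and Gbe1 did not overlap under any of the 4 other scalings.

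The other genes of glycogen synthesis gave mixed values. Gyg, the glycogenin that primes the polymer, had overlapping arrays on its brighter probe set (log2 difference -0.088 ± 0.12), and its second probe set gave -0.074 ± 0.018 without overlap. Ugp2, which makes UDP-glucose, showed a log2 difference of -0.0024 ± 0.058. Pgm1, the phosphoglucomutase that links glucose phosphates to both arms of glycogen metabolism, measured 2213 and 2128 in HSL-null, against 2020 and 1907 in wildtype. It lay higher without overlap, by 0.15 ± 0.050 on the log2 scale. Pgm2, a related sugar phosphomutase, lay below the filter at 5.90 and 8.10 in HSL-null and 6.20 and 11.7 in wildtype. The median of the group was -0.071, and it lay at -0.12 with quantile normalization and also without the second wildtype array.

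Of the 5 genes that break glycogen down and passed the filter, 3 lay higher in HSL-null without overlap (Phkg1, Gaa and Pygb), 0 lower and 2 overlapped, beside 19.5% higher and 21.1% lower over all probe sets. The overlapping genes changed sign with the scaling, Pygm under 3 of 4 others and Phka1 under 1. Phkg1, the catalytic subunit of muscle phosphorylase kinase, measured 209 and 228 in HSL-null, against 162 and 155 in wildtype. After Pfkfb3 it showed the highest difference of the 28 genes, 0.46 ± 0.071 on the log2 scale or 1.38-fold, and it passed when the smallest comparison had to reach 1.2-fold. Gaa, the lysosomal acid glucosidase that degrades glycogen outside the phosphorylase route, measured 521 and 532 in HSL-null and 474 and 487 in wildtype (log2 difference 0.13 ± 0.025). Pygb, the phosphorylase first known from brain, was dim, at 35.2 and 37.2 in HSL-null and 28.7 and 31.4 in wildtype, a log2 difference of 0.27 ± 0.076.

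Muscle phosphorylase and the regulatory chain of its kinase overlapped between genotypes. Pygm measured 3155 and 3281 in HSL-null and 3275 and 3060 in wildtype, a log2 difference of 0.024 ± 0.057. Phka1, a regulatory subunit of phosphorylase kinase, differed by 0.018 ± 0.036 on the log2 scale. Phkb, another regulatory subunit, was under the floor on every array, between 3.40 and 4.20, and has no reading here. The group median of 0.13 stood at 0.077 with the filter at the 75th percentile, which left out Pygb. It stood at 0.077 also with no filter, which added Phkb at the floor, and at 0.074 with centring on bright probe sets.

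**Figure D3:**
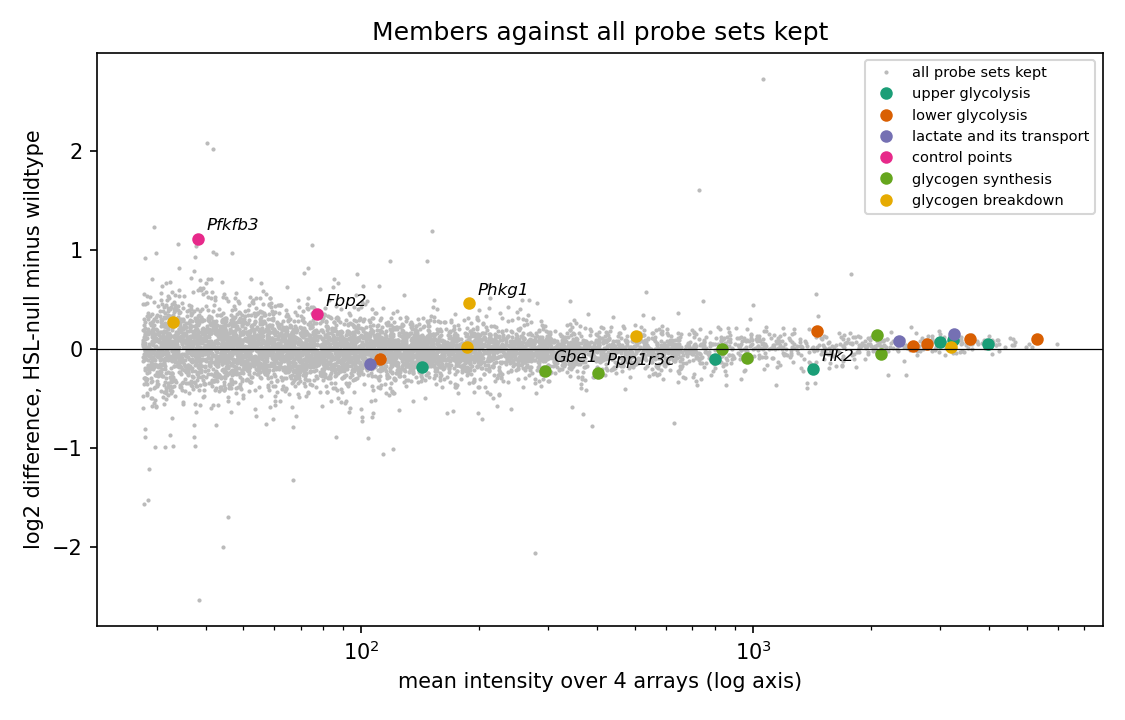
Log2 difference, HSL-null minus wildtype (vertical axis), against mean intensity over 4 arrays (horizontal log axis) for all 6208 probe sets kept (grey) and the 28 genes above the filter (coloured by step). The spread narrows with level, and the brightest members sit slightly above 0, where the 353 probe sets with a mean of at least 1000 have a median of 0.034.

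Muscle and ubiquitous forms of the same step were compared by the ratio of their probe sets on each array, whose change between genotypes shows unequal change and not a level. Of 9 pairs listed, 5 had both forms above the filter. The ratio of Pfkm to Pfkl was higher on both HSL-null arrays, by 0.27 ± 0.13 on the log2 scale. The ratio of Pygm to Pygb was lower on both HSL-null arrays, with a log2 difference of -0.25 ± 0.11. The ratios of Hk2 to Hk1 (-0.10 ± 0.23), Pgam2 to Pgam1 (0.15 ± 0.22) and Ldha to Ldhb (0.066 ± 0.093) overlapped between genotypes. The 5 pairs thus showed no common direction. The count of pairs with the muscle form higher was 3 without the second wildtype array, 2 without the first HSL-null array and 3 without the second, and the count with it lower was 2 without the second HSL-null array. With an array left out fewer comparisons must go one way. No share over ratios of other probe sets was computed, so these counts have no background beside them.

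**Figure D4:**
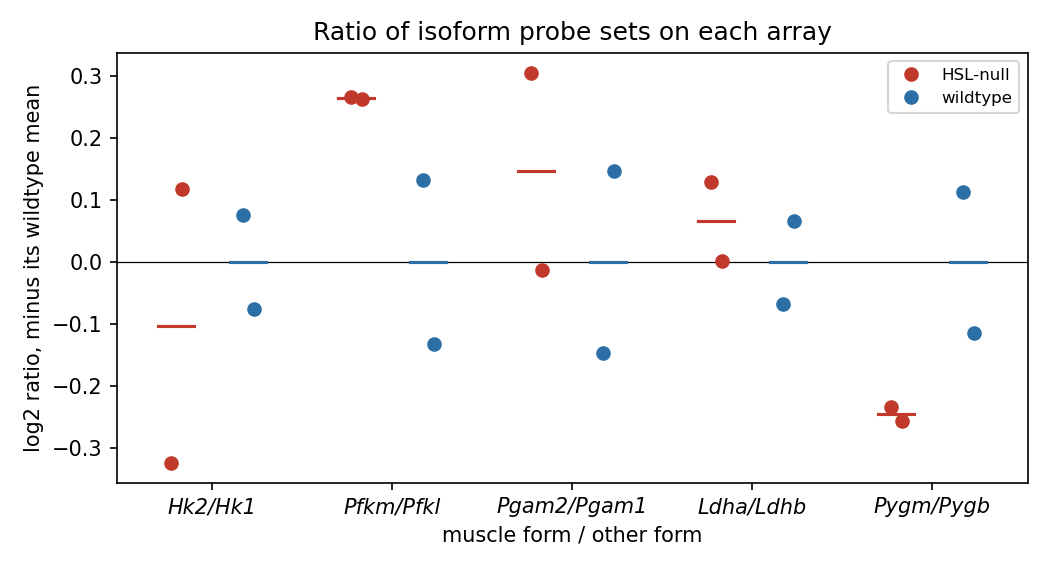
Log2 ratio of the muscle form to the other form on each array, minus its wildtype mean (vertical axis), for the 5 pairs above the filter (horizontal axis), with HSL-null left and wildtype right in each pair. Points are arrays and lines their mean. The HSL-null points lie above the wildtype points for Pfkm/Pfkl, below them for Pygm/Pygb, and on no one side of them for the other 3 pairs.

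A further list of 57 genes around the pathway (glucose entry, glycerol phosphate, pentose phosphates, pyruvate dehydrogenase and their regulators) had 26 above the filter. Of these 0 were separated, 8 lay higher without overlap (30.8%) and 4 lower (15.4%), beside 19.5% and 21.1% of all probe sets, and their median log2 difference was 0.026. The higher ones with the largest differences were Dlat at 0.20 ± 0.022 and Pdha1 at 0.19 ± 0.083, subunits of the pyruvate dehydrogenase complex, Pdk4, the kinase that switches this complex off, at 0.18 ± 0.057, and the bisphosphoglycerate mutase Bpgm at 0.15 ± 0.088. The lower ones were the glucose transporter Slc2a1 at -0.44 ± 0.30, the pentose phosphate enzymes Pgd at -0.31 ± 0.14 and Taldo1 at -0.11 ± 0.044, and the AMP-activated kinase subunit Prkag1 at -0.14 ± 0.053. Slc2a4, the insulin-responsive glucose transporter of muscle, overlapped between genotypes at -0.056 ± 0.099. Hif1a, a hypoxia-inducible factor, was named after its values were seen and is not among the 4 largest differences. It measured 452 and 463 in HSL-null and 418 and 451 in wildtype, a log2 difference of 0.077 ± 0.058. Its arrays did not overlap, but only by a narrow margin. Its probe set has the suffix _f and can share sequence with related genes.

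Markers of fibre type and of other cells are given from the same pools, where 19.5% of all probe sets lay higher without overlap and 21.1% lower. Of 10 fast-fibre genes above the filter 3 (Myh4, Actn3 and Pvalb) were separated higher and 0 lower, beside 0.226% of all probe sets in each direction. Without overlap 4 lay higher and 0 lower, and 6 overlapped, among them Myh1 (log2 difference 0.11 ± 0.12) and Mylpf (-0.27 ± 0.24). The summed intensity of the 10 genes was 25048 and 24669 in HSL-null and 21762 and 19935 in wildtype. Most of the difference between these sums came from the 3 separated genes. The fast-fibre gene Myh2 had a mean under the floor and is not in the sums. Myh4, a myosin gene of the fastest fibres, measured 1897 and 1782 in HSL-null, against 279 and 277 in wildtype. Slow-fibre genes summed to 38047 and 36500 in HSL-null and 37113 and 34980 in wildtype, with 3 of 9 higher without overlap and 0 separated. All of them but Casq2 have a mean of at least 1000, where 30.6% of probe sets lay higher and 13.9% lower. Tnnt1 held the highest intensity on every array, and signals near that level may not show a change. Fibroblast genes summed to 3756 and 3863 in HSL-null and 3304 and 3268 in wildtype, with 5 of 5 higher without overlap and 0 separated. Erythrocyte genes summed to 3065 and 2957 in HSL-null and 2693 and 2782 in wildtype, with 4 of 4 higher without overlap and 0 separated.

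White adipocyte genes had 3 of 5 lower without overlap, 1 of them (Adipoq) separated, and their summed intensity, most of it from Car3, which muscle also expresses, was 4181 and 3965 in HSL-null and 4246 and 3935 in wildtype. Adipoq, a defining adipocyte gene, measured 73.5 and 74.1 in HSL-null, against 150 and 157 in wildtype, and Cidec lay under the floor. Macrophage genes summed to 555 and 557 in HSL-null and 533 and 576 in wildtype, with 1 of 6 higher without overlap and 0 lower. Endothelial genes summed to 668 and 684 in HSL-null and 700.1 and 719 in wildtype, with 0 of 5 higher without overlap and 1 lower. All 5 endothelial genes had a log2 difference below 0, with a median of -0.12. The part of fibre type, of these cells and of the beta-actin ratio in the differences of the glycolytic and glycogen genes was not tested.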

How the data were processed

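RNA of soleus muscle was measured on 4 arrays. Per the labels, the arrays are technical duplicates of 1 pool of 5 mice per genotype. The deposited table holds 1 linear intensity per probe set and array, which the authors had scaled before deposit: with 2% trimmed from each end, every array has a mean near 100, as tested on the values. Software and background correction are not named in the sources used here.

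Symbols came from the platform annotation and were matched by gene ID to RefSeq. Of the probe sets 10855 had 1 symbol, 396 several, and 1237 were not listed or had no symbol. Of the 31 genes, 9 had more than 1 probe set. Probe sets with suffixes such as _f and _s can share sequence with related genes. The 66 control probe sets were left out, except for Gapdh, which has no other probe set of its own.

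Values were floored at the 25th percentile (5.70) and set to log2, and probe sets with a mean at or above the median (27.7) were kept. The rule for separated genes was checked on simulated data. Their noise was the spread of duplicate arrays and held no variation between animals or pools. Every gene of the list was accounted for. Values per array were to be given for separated genes, the 5 highest and 5 lowest without overlap, and isoform pairs, and those of other members were added. Genes of the related list were named when not overlapping, at most 4 per direction by size, and Slc2a4 and Hif1a were named after their values were seen. Members, lists and rules were chosen with earlier results of these data known. Alternatives covered the scaling (limma 3.58.1 in R 4.3.3, with values of 0 set to 0.1), floor, filter, threshold, probe set, replicate block and each array left out. Python 3.11.15, numpy 2.4.6 and pandas 2.3.3 were used. Precision is limited by the number of arrays.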

Additional observations from a re-analysis of the deposited data

How the results depend on the processing

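The 16 genes whose arrays did not overlap kept their direction under the 4 other scalings. The choice of probe set moved Gapdh alone, whose difference was 0.11 as the mean of its control probe sets. The other genes had no second probe set above the filter, so this choice could not move them. The remaining alternatives could not have reversed the direction of any of the 16 genes. Leaving out an array or comparing only same-numbered arrays keeps the sign of such a gene, and the floor, filter and threshold left its difference unchanged. Under median centring Gys1 overlapped, and with centring on probe sets with a mean of at least 1000, an alternative chosen after seeing the data, Eno3 and Gapdh did. The separated count of 1 higher was 2 at a threshold of 1.2-fold, 0 at 2-fold, where Pfkfb3 (log2 difference 1.11) was no longer separated, and 0 with the filter at the 75th percentile, which removed that gene. It was 1 under the other alternatives, and the count lower was 0 under all of them. With single arrays left out, which needs fewer comparisons to go one way, the genes higher without overlap numbered 12 to 16 in place of 10, and those lower 7 to 8 in place of 6. Over all probe sets the shares in these settings were 32.8% to 35.4% higher and 35.3% to 36.5% lower. The median difference of 0.050 ranged from 0.021 to 0.083 with single arrays left out, and was -0.0041 with quantile normalization and -0.0062 with the centring on bright probe sets. Over all probe sets kept the median was -0.00023 with that normalization and -0.059 with that centring. The isoform pairs with the muscle form higher numbered 1 to 3 with single arrays left out, and those lower 1 to 2, and 0 with the filter at the 75th percentile, which removed Pygb. Over all probe sets, 28 were separated as reported, 176 with no filter, 10 with the filter at the 75th percentile, 226 at 1.2-fold, 14 at 2-fold and 82 to 109 with single arrays left out. The centring on bright probe sets gave 11.0% of all probe sets higher and 32.4% lower without overlap, against 19.5% and 21.1% as reported. The array numbers gave no sign of pairing, as the deviations of same-numbered arrays correlated at -0.086 over probe sets. With the replicate block, in which only arrays of the same number are compared, 12 genes lay higher and 6 lower, 1 was separated and the median stayed at 0.050. Over all probe sets 25.4% lay higher and 27.0% lower with that block. Signals near the top of the scale, as for Gapdh, and near the floor, as for Phkb and Pgm2, limit what can be read.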
